A study of Arabidopsis thaliana with 15 samples.

Results

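Short H3K27me3 peaks that coincide with H2AK121ub were examined in the wild type of Arabidopsis thaliana. Both marks are chemical tags on lysines of histones, 3 methyl groups on histone H3 for H3K27me3 and a ubiquitin on histone H2A for H2AK121ub. Peaks were chosen by 2 measured properties, a length under 1000 bp in the H3K27me3 list and at least 1 bp shared with a peak of the H2AK121ub list. Of the 4367 H3K27me3 peaks, 720 were under 1000 bp long, and 657 of these met H2AK121ub and are called short double-marked peaks here. They made up 15.0% of the H3K27me3 peaks by number and 2.16% of the H3K27me3 bases, 409.6 kb in all.

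The marks had been profiled by sequencing of immunoprecipitated chromatin (ChIP-seq) from whole seedlings of the wild type (Col-0) at 10 days after germination (DAG), with 2 replicates per mark and 1 input library. The series also held libraries of the emf1, ring1ab and lhp1 mutants, which were not analysed here. The 2 lists analysed hold positions alone, so the replicates, the read depth and the strength of each peak are unknown. According to the methods, each list is the intersection of peaks called per replicate, combined with wild-type peaks at 7 DAG, and whether the deposited lists include that earlier age is not settled. A whole-seedling peak averages over cell types, so a mark in few cells and a weak mark in many cells cannot be told apart.

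Polycomb Group proteins keep genes silent in cells that do not need them. Polycomb repressive complex 1 (PRC1) carries ubiquitin ligases that set H2AK121ub, and PRC2 carries a methyltransferase that sets H3K27me3, a mark known in plants for covering whole silent genes such as floral regulators in seedlings. A peak much shorter than a gene is therefore unlike the long domains for which H3K27me3 is best known.

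Sequences of 6 short double-marked peaks show the places that the results turn on. Each is given 5′ to 3′ on the strand of the gene it lies in or upstream of, with coding bases in capitals and all other bases in lower case. Coordinates are those of TAIR10, and the sequence is from the RefSeq copy of that assembly. The shortest peak, chr2:15540860-15540869 on the plus strand, was 10 bp long and lay within the coding sequence of AT2G37000, a TCP family transcription factor. The third shortest, chr2:13572242-13572312 on the plus strand, was 71 bp of coding sequence of CHX21, a cation/H+ exchanger. The peak chr4:13985820-13985965 on the plus strand was 146 bp of coding sequence of ULT1, a trithorax-group regulator of meristem size. The peak chr1:2641025-2641311 on the minus strand held 37 bases of intron and 250 coding bases of PSAO, a subunit of photosystem I. The peak chr4:12903469-12903739 on the minus strand spanned an intron of AT4G25160, a U-box protein kinase, with 91 bases that do not code between 2 coding exons. The peak chr5:4788188-4788414 on the minus strand, 227 bp in no annotated gene, was centred 305 bp upstream of P5CR, the last enzyme of proline synthesis. The peaks in CHX21 and PSAO lay only partly under H2AK121ub, with overlapping H2AK121ub peaks at chr2:13571028-13572266 and chr1:2640322-2641226. The others lay wholly inside theirs.
AT2G37000: GCCGTTCACA
CHX21: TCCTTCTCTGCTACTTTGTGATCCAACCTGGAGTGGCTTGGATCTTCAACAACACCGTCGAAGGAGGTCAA
ULT1: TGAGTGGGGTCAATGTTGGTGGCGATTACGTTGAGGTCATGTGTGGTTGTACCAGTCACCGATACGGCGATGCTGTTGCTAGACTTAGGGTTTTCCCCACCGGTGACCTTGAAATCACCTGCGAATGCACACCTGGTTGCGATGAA
PSAO: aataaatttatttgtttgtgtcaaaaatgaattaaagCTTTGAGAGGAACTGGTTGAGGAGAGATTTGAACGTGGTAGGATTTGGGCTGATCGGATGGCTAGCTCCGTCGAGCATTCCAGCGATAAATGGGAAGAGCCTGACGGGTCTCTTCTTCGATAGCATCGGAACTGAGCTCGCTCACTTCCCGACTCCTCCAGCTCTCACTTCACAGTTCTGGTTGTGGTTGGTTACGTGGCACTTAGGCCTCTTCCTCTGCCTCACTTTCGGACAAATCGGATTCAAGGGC
AT4G25160: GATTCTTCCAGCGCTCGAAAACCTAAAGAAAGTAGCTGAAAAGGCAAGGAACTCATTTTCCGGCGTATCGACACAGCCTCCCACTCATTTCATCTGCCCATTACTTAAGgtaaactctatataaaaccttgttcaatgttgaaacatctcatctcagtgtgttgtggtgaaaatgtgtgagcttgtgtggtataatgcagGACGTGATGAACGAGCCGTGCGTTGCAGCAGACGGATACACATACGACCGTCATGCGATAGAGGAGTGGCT
upstream of P5CR: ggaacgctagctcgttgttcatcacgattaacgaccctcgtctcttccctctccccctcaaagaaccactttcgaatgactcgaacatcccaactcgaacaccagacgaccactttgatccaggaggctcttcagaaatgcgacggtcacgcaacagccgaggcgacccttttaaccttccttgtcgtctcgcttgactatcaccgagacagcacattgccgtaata

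The short double-marked peaks had a median length of 630 bp (95% interval of the median 609 to 670, n = 657), with quartiles of 436 and 827 bp. Only 22 were under 200 bp and 2 were under 50 bp. By steps of 200 bp, they numbered 22, 122, 149, 166 and 198, and the numbers went on past the limit. The last 3 peaks under it were 995, 996 and 997 bp long, and the first 3 with H2AK121ub at or over it were 1000, 1004 and 1006 bp long. The 995 bp peak was centred in the coding sequence of AT5G38710 and the 1006 bp peak in that of FLA13, a fasciclin-like arabinogalactan protein. Overlap with H2AK121ub was used to select the peaks and is given as a description. It was found for 91.2% of the H3K27me3 peaks under 1000 bp (657 of 720, 95% Wilson interval 89.0 to 93.1%), for 93.6% of those of at least 1000 bp (3414 of 3647, 92.8 to 94.4%) and for 93.2% of all of them. By length, the share was 84.6% under 200 bp (22 of 26, 66.5 to 93.9%) and 94.9% at 600 to 799 bp (166 of 175, 90.5 to 97.3%), with overlapping intervals.

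**Figure D1:**
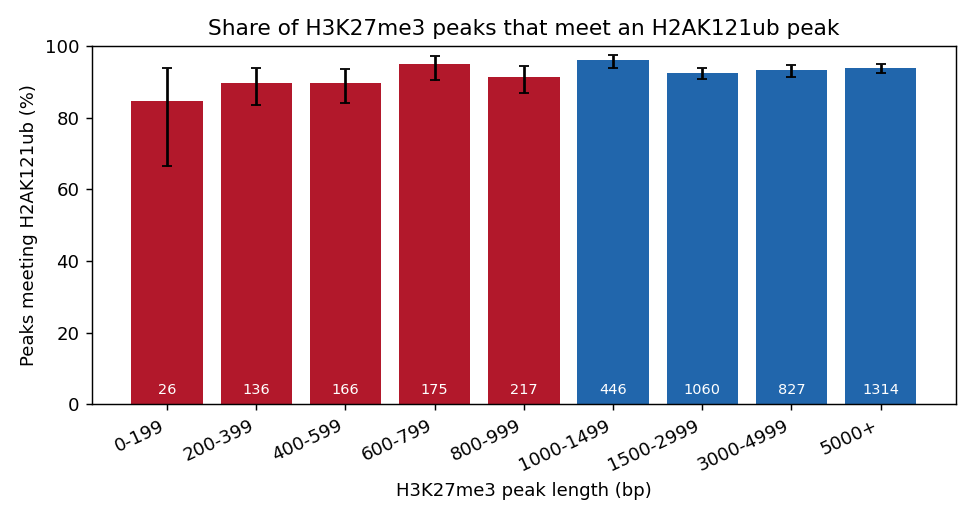
Share of H3K27me3 peaks that met an H2AK121ub peak (y axis, percent, with 95% Wilson intervals) by H3K27me3 peak length (x axis, bp); red bars are peaks under 1000 bp, blue bars longer peaks, and white digits the number of peaks. All bars lie between 84.6% and 96.2%, and the interval is widest for the 26 shortest peaks.

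Every short double-marked peak met exactly 1 H2AK121ub peak, its partner, and the partner was usually the longer of the pair. The partner had a median length of 1495 bp (1372 to 1640, n = 657), the quartiles were 833 and 2838 bp, and the whole range ran between 95 and 20206 bp. In 83.3% of pairs (547 of 657, 80.2 to 85.9%) the partner was longer than the H3K27me3 peak, and over all 657 pairs the median ratio of partner to H3K27me3 length was 2.52 (2.24 to 2.90). For 65.6% (431 of 657, 61.9 to 69.1%) the H3K27me3 peak lay wholly inside its partner, for 26.8% (176 peaks) the edges crossed, and for 7.61% (50 peaks) the H3K27me3 peak wholly held the H2AK121ub peak. At least 90% of the length was under H2AK121ub for 76.7% of the short double-marked peaks (504 of 657, 73.3 to 79.8%). Conversely, the H3K27me3 peak took up a median of 36.7% of its partner. Among H3K27me3 peaks of at least 1000 bp with H2AK121ub, 13.2% (451 of 3414, 12.1 to 14.4%) lay wholly inside 1 H2AK121ub peak and the median share of length under H2AK121ub was 62.6%. Length chose the peaks on both sides of this contrast, so it is given as a description.

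The length of the partner bore little relation to the length of the H3K27me3 peak. Spearman's rho over the 657 pairs was -0.032, given as a description because 24 peaks share a partner. Partners had a median of 1618 bp for short double-marked peaks under 400 bp (1371 to 1894, n = 144), of 1409 bp for those of at least 400 but under 700 bp (1267 to 1714, n = 233) and of 1492 bp for those of at least 700 but under 1000 bp (1320 to 1660, n = 280), with overlapping intervals. The partners were longer than H2AK121ub peaks as a whole, whose median was 978 bp (959 to 1001, n = 16310), and shorter than those that met an H3K27me3 peak of at least 1000 bp, with a median of 1756 bp (1704 to 1811, n = 4950). Meeting H3K27me3 chose these H2AK121ub peaks, so the gaps are given as a description.

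**Figure D2:**
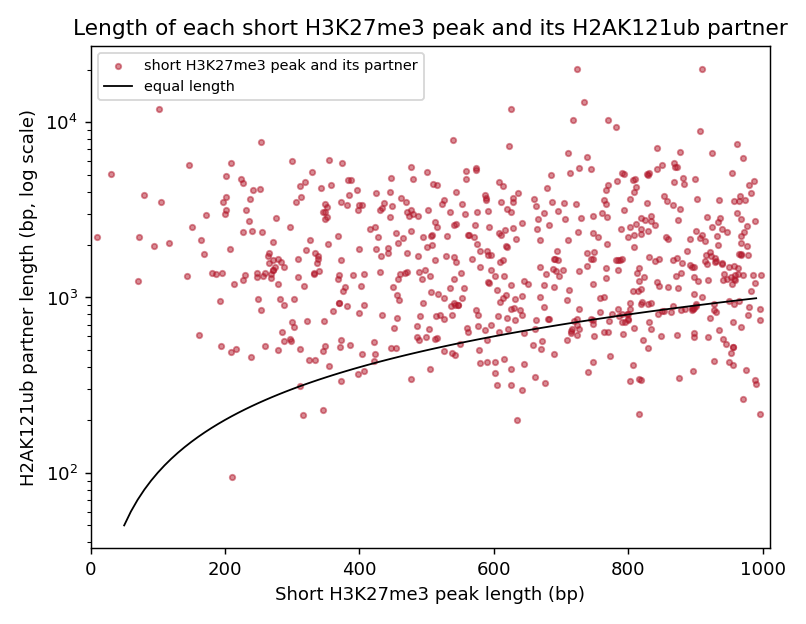
Length of each of the 657 short double-marked H3K27me3 peaks (x axis, bp) and of its H2AK121ub partner (y axis, bp, log scale); each point is 1 pair and the line marks equal length. Most points (547) lie above the line, and partners shorter and longer than 1000 bp occur side by side over most of the range of H3K27me3 lengths.

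The longest partner, chr4:11621277-11641482 (20206 bp), held 2 short double-marked peaks, 910 bp in AT4G21903, a MATE efflux family gene, and 724 bp in AT4G21930, a senescence regulator family gene. The next longest, chr4:12455423-12468408 (12986 bp), held a 734 bp peak in CSLG3, a cellulose synthase-like gene. The shortest partners had 95, 200 and 212 bp. The 95 bp partner overlapped a 211 bp peak in AT1G09310, a gene of unknown function. The 212 bp partner lay near the end of chromosome 2, inside a 316 bp peak at chr2:9842-10157. No H2AK121ub peak held more than 2 short double-marked peaks, and 12 held 2.

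Short double-marked peaks lay mostly in the coding part of protein coding genes. The midpoint fell in a gene body for 79.9% (525 of 657, 76.7 to 82.8%), against 58.9% of all H3K27me3 peaks, and in coding sequence for 69.4% (456 of 657, 65.8 to 72.8%), against 37.9% of all H3K27me3 peaks. Introns held 49 midpoints (7.46%), the 5′ untranslated region (UTR) 12 and the 3′ UTR 8. A further 44 (6.70%) lay in the 750 bp upstream of a gene, 36 (5.48%) in another annotated gene such as a long non-coding RNA or a pseudogene, and 52 (7.91%) in no annotated gene. Seen as whole peaks, 60.0% (394 of 657, 56.2 to 63.6%) lay entirely within 1 gene body, 524 met a single protein coding body, 17 met 2 and 116 met none.

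The place of the midpoint was compared with that in 3 other kinds of peak. The share in gene bodies was 79.9% for short double-marked peaks, against 41.3% (26 of 63) for short H3K27me3 peaks without H2AK121ub, a difference of 38.6 percentage points (95% Newcombe interval 25.9 to 50.3). Against H3K27me3 peaks of at least 1000 bp with H2AK121ub, at 56.1% (1916 of 3414), the difference was 23.8 points (20.2 to 27.1). It was 13.0 points (9.05 to 16.6) when an H2AK121ub peak had to cover at least 50% of the H3K27me3 peak in both sets, which left 1761 longer peaks. Against H2AK121ub peaks under 1000 bp free of H3K27me3, at 83.0% (5527 of 6663), it was -3.04 points (-6.39 to -0.012), and under 9 of 12 alternative settings the interval held 0, so this difference is not called. The share of all midpoints in coding sequence was higher for the short double-marked peaks than for all 3 other kinds. Their 69.4% stood against 34.9% for short H3K27me3 peaks without H2AK121ub, a difference of 34.5 points (21.6 to 45.6). It stood against 32.9% for longer double-marked peaks, a difference of 36.5 points (32.6 to 40.3), and against 55.1% for short H2AK121ub peaks free of H3K27me3, a difference of 14.3 points (10.5 to 17.9), or 9.52 points (6.40 to 12.6) with a length limit of 1500 bp. Among midpoints in gene bodies alone, 86.9% were coding for short double-marked peaks (456 of 525, 83.7 to 89.5%). For short H3K27me3 peaks without H2AK121ub it was 84.6% (22 of 26, 66.5 to 93.9%), so the coding difference from that set was not seen within gene bodies. For longer double-marked peaks it was 58.6%, and for short H2AK121ub peaks free of H3K27me3 66.4%. All these intervals treat each peak as independent and cover counting error only, and the first comparison rests on 63 peaks.

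**Figure D3:**
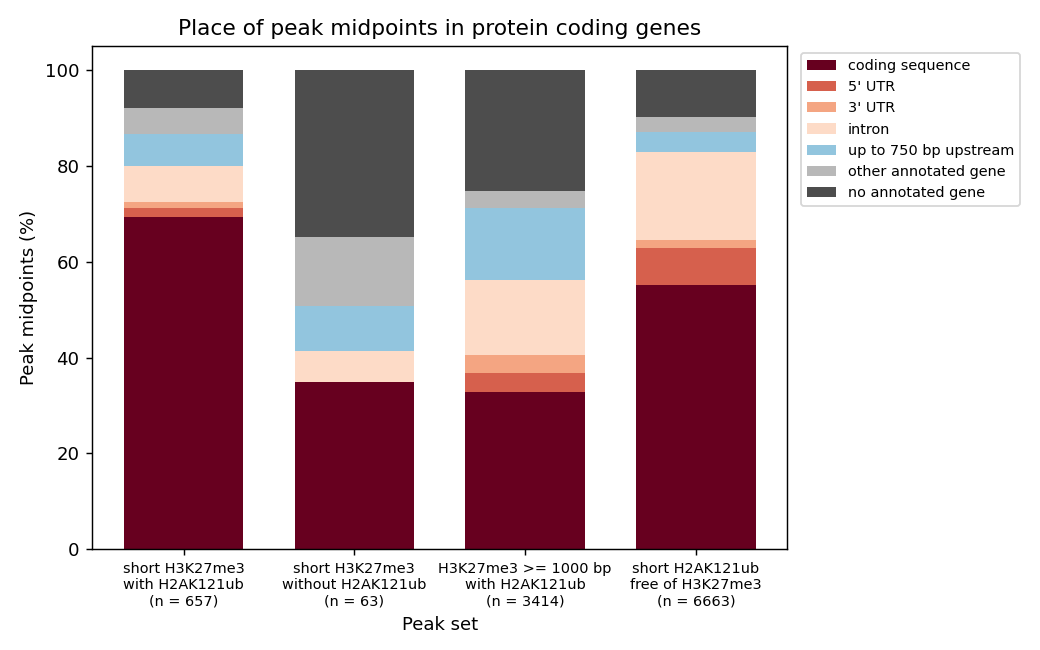
Place of peak midpoints (y axis, percent of midpoints) for short double-marked H3K27me3 peaks and 3 comparison sets (x axis), as stacked bars by annotation; n is the number of peaks. Coding sequence takes 69.4% of midpoints in the leftmost bar, against 34.9%, 32.9% and 55.1% in the others from left to right.

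Shorter peaks were more often coding. The midpoint was in coding sequence for 81.2% of short double-marked peaks under 400 bp (117 of 144, 74.1 to 86.8%), for 71.7% of those of at least 400 but under 700 bp (167 of 233, 65.6 to 77.1%) and for 61.4% of those of at least 700 but under 1000 bp (172 of 280, 55.6 to 66.9%). In longer double-marked peaks the share was 32.9%. By partner length the intervals overlapped. Above the upper quartile of partner length the share was 68.5% (113 of 165, 61.0 to 75.1%), and below the lower quartile 63.9% (106 of 166, 56.3 to 70.8%).

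Within a gene, most short double-marked peaks (419 of 525, 79.8%) began downstream of the start of the gene. The midpoint was a median of 492 bp downstream of the annotated transcription start site (TSS, 466 to 522, n = 525), with quartiles of 352 and 704 bp. For short H3K27me3 peaks without H2AK121ub the median was 442 bp (370 to 703, n = 26), an overlapping interval. For longer double-marked peaks it was 804 bp (770 to 838, n = 1916). The upstream edge of the H3K27me3 peak lay a median of 175 bp (150 to 207) inside the gene and the downstream edge 841 bp (801 to 869) inside it. The upstream edge of the H2AK121ub partner had a median position of -24 bp (-48 to -5) relative to the TSS, and its downstream edge lay 1393 bp (1266 to 1528) inside the gene. The partner held the TSS of the host gene for 55.0% (289 of 525, 50.8 to 59.3%), whereas the H3K27me3 peak itself held it for 20.2% (106 of 525, 17.0 to 23.8%). H2AK121ub reached beyond the H3K27me3 peak by a median of 218 bp (174 to 287) on the upstream side and 321 bp (235 to 404) on the downstream side. The upstream overhang was the larger of the pair for 48.6% of these peaks (255 of 525, 44.3 to 52.8%), an interval that holds 50%. The base 450 bp downstream of the host TSS was under the H3K27me3 peak for 67.6% of the 525 peaks and under the partner for 90.9%. At 1500 bp these shares were 5.14% under the H3K27me3 peak and 43.6% under its partner.

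**Figure D4:**
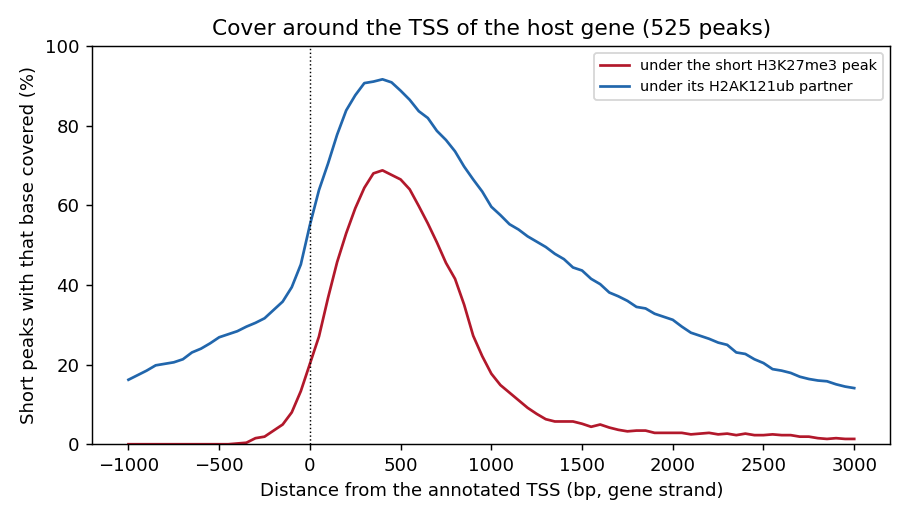
Cover around the annotated TSS for the 525 short double-marked peaks with a midpoint in a gene body: percent of them (y axis) whose base at that distance (x axis, bp, along the gene strand) was under the H3K27me3 peak (red) or under its H2AK121ub partner (blue). At the TSS 20.2% lie under the H3K27me3 peak and 55.0% under its partner, and 450 bp downstream 67.6% and 90.9%.

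As a share of the gene body, the midpoint lay at a median position of 0.412 (0.378 to 0.431, n = 525), where 0 is the TSS and 1 the end of the gene, with quartiles of 0.242 and 0.540. Only 5 of 525 midpoints lay in the last 10% of the body, and 39 peaks (7.43%) reached the end of the gene. The median position was 0.429 (0.318 to 0.557, n = 26) for short H3K27me3 peaks without H2AK121ub, 0.440 (0.425 to 0.456, n = 1916) for longer double-marked peaks and 0.177 (0.173 to 0.181, n = 5527) for short H2AK121ub peaks free of H3K27me3. In bases from the TSS the gap to the last set was narrower, with medians of 492 bp (466 to 522) for short double-marked peaks and 416 bp (410 to 420) for short H2AK121ub peaks free of H3K27me3. The genes differed in length, with a median of 1412 bp (1304 to 1514, n = 519) for the hosts of short double-marked peaks and 2541 bp (2500 to 2589, n = 5350) for the hosts of short H2AK121ub peaks free of H3K27me3. The midpoint was within 500 bp of a TSS for 46.9% of short double-marked peaks (308 of 657, 43.1 to 50.7%), against 30.5% of all H3K27me3 peaks. Against short H2AK121ub peaks free of H3K27me3, at 58.8%, the difference was -11.9 points (-15.9 to -7.90). A TSS lay inside 18.7% of short double-marked peaks (123 of 657, 15.9 to 21.9%) and inside 77.7% of longer double-marked peaks (2653 of 3414, 76.3 to 79.1%), given as a description because a longer peak holds more bases. Among short H3K27me3 peaks without H2AK121ub the share was 14.3%, a difference of 4.44 points (-6.61 to 11.7) that holds 0. Among short H2AK121ub peaks free of H3K27me3 the share was 11.4%, a difference of 7.36 points (4.45 to 10.6).

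The host genes were short and often had no intron. Of the 552 protein coding genes with a short double-marked peak in the body, 43.8% (242, 39.8 to 48.0%) had no intron when exons were merged over transcripts, against 20.8% of all protein coding genes. Among genes with a longer double-marked peak in the body, 28.0% had none (1522 of 5444, 26.8 to 29.2%). Counted over peaks, the midpoint was in a gene without intron for 35.3% of short double-marked peaks, against 13.6% of short H2AK121ub peaks free of H3K27me3, a difference of 21.7 points (18.1 to 25.6). Against short H3K27me3 peaks without H2AK121ub, at 14.3%, it was 21.0 points (9.76 to 28.6). Among genes that held a midpoint, 44.5% had no intron for short double-marked peaks (231 of 519, 40.3 to 48.8%). For short H3K27me3 peaks without H2AK121ub it was 34.6% (9 of 26, 19.4 to 53.8%), an overlapping interval. The median lengths of these host genes were 1412 bp (1304 to 1514) and 1240 bp (1071 to 1719), also with overlapping intervals. The median gene length was 1376 bp (1285 to 1477, n = 552) for genes with a short double-marked peak, 1655 bp (1619 to 1684, n = 5444) for genes with a longer one and 2078 bp (2062 to 2093, n = 27444) for all protein coding genes. A gene without intron has more coding bases, so hosts with introns were also read alone. In these, 77.8% of the midpoints of short double-marked peaks were coding (228 of 293, 72.7 to 82.2%), with a median of 51.1% of the host body coding. For short H2AK121ub peaks free of H3K27me3 in hosts with introns, 60.6% of midpoints were coding (2802 of 4623, 59.2 to 62.0%), with a median of 48.8% of the body coding. For short H3K27me3 peaks without H2AK121ub in such hosts it was 76.5% (13 of 17, 52.7 to 90.4%), close to that of short double-marked peaks.

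The median GC content of short double-marked peaks was 42.7% (42.2 to 43.4%, n = 657), against 38.6% (36.2 to 40.2%, n = 63) for short H3K27me3 peaks without H2AK121ub, 34.5% (34.4 to 34.6%, n = 3414) for longer double-marked peaks and 40.8% (40.6 to 41.0%, n = 6663) for short H2AK121ub peaks free of H3K27me3. Coding bases were 57.7% of all bases under short double-marked peaks and 26.2% of those under longer double-marked peaks. Within coding bases alone the GC content was 47.1% under short double-marked peaks and 44.3% under longer ones, and within all other bases it was 34.7% under short double-marked peaks and 30.1% under longer ones. Whether GC content bore on the calling of these peaks was not tested.

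A pair of short motifs known from Polycomb targets was counted in the central 300 bp. The telobox (AAACCCTA, searched on both strands) is bound by the TRB proteins and the GA repeat (GAGAGAGA, both strands) by BPC proteins, and both are known to recruit PRC2 in this species. Matches to the 2 motifs can share at most 1 base. A telobox was in 3.44% of the 581 short double-marked peaks of at least 300 bp (20, 2.24 to 5.26%), against 5.07% of all H3K27me3 peaks of that length. A GA repeat was in 6.88% (40, 5.10 to 9.24%), against 5.47%. In the 300 bp around the starts of all protein coding genes (250 bp before and 50 after) the shares were 6.22% for the telobox and 8.38% for the GA repeat. Both shares in short double-marked peaks had intervals that hold the value over all H3K27me3 peaks. The 146 bp peak in ULT1 printed above holds a telobox on the reverse strand of the gene, and the other 5 printed sequences hold neither motif.

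Gene content was read from the bodies and the 750 bp upstream. A short double-marked peak met the body of 552 protein coding genes, 2.01% of all 27444, and the body or the 750 bp upstream of 772, or 2.81%. Of the 552, 25 also had a longer double-marked peak in the body, and the rest had no longer one. The median share of the gene body under the H3K27me3 peak was 39.4% (35.7 to 42.8%, n = 552), and that under H2AK121ub was 81.4% (78.5 to 83.8%). H2AK121ub covered more of the body than the short peak in 468 genes, less in 73 and an equal share in 11. For genes with a longer double-marked peak the median H3K27me3 cover was 100%. The length limit caps the cover by a short peak, so these contrasts of cover are given as a description. At least 50% of the body was under the short peak in 219 genes and the whole body in 16.

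The most completely covered genes of at least 500 bp were small. The 9 genes with the whole body under the short peak were 554 to 838 bp long. A peak under 1000 bp can wholly cover only a gene shorter than that, so the lengths are given as a description. They included BCP1, a homologue of a pollen protein of Brassica campestris, under a 957 bp peak, and SK13, an SKP1-like gene of the kind that joins F-box proteins to ubiquitin ligases, under an 824 bp peak. AT4G02250, an invertase/pectin methylesterase inhibitor superfamily gene, was under a 726 bp peak. AT3G43660, a vacuolar iron transporter family gene, was under a 968 bp peak, and AT2G24810, a thaumatin family gene, under a 922 bp peak. The others were AT1G10225, AT2G26050, AT4G31830 and AT2G39590. The last, which encodes a ribosomal protein S15a, had a 995 bp H3K27me3 peak and an H2AK121ub partner of 215 bp, which covered 20.9% of the body. The 10th gene, AT5G41720, an F-box associated gene, had 98.7% of the body covered.

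Of the functional groups counted, photosynthesis genes had the highest share with a short double-marked peak. Of 84 protein coding genes named in the annotation for photosystems, chlorophyll, light harvesting or Rubisco, 17 (20.2%, 13.04 to 30.04%) had a short double-marked peak in the body, against 2.01% of all protein coding genes. These 17 made up 3.08% (1.93 to 4.88%) of the 552 genes. A longer double-marked peak was in 10 of the 84 (11.9%, 6.60 to 20.5%), against 19.8% of all protein coding genes, and no photosynthesis gene had both. H2AK121ub was in the body of 75.0% of the 84 genes and of 61.1% of all protein coding genes. The group list was chosen with earlier results of these data known, and no set test was run. All 17 genes are named below, chosen after their values were seen.

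The 17 genes spanned both photosystems, their antennae and Rubisco. Chlorophyll-binding antenna proteins of photosystem II came first by number. The short peak covered 87.7% of the body of LHB1B2, 78.9% of CAB1, 72.8% of CAB2, 62.3% of LHB1B1, 54.6% of LHCB4.2, 28.8% of LHCB2.3 and 11.3% of LHCB5. The cover thus differed widely, and the least covered, LHCB5, has 5 introns while LHB1B2, CAB1, CAB2, LHB1B1 and LHCB4.2 have none. CAB1, CAB2, LHB1B1 and LHB1B2 encode the same antenna protein and are close copies, so reads could be split among them and their peaks are uncertain. LHCA2, an antenna protein of photosystem I, had 35.7% covered.

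Among subunits of the photosystems, cover ranged as widely. Of photosystem I, PSAG had 76.3% of the body covered by a 595 bp peak, PSAD-1 51.8% by a 587 bp peak and PSAO 25.4% by the 287 bp peak printed above. Of photosystem II, PSBR had 71.6% covered, PSBY 41.8% and PSBTN 41.8%. NPQ4, the PsbS protein that triggers heat dissipation of excess light, had 6.98% covered by a 224 bp peak centred 2812 bp from the TSS, far from the others. ELIP2, an early light-induced protein that protects against excess light, had 89.1% covered, the highest of the group, by a 966 bp peak. RBCS3B, a small subunit of Rubisco and likewise uncertain as one of several close copies, had 59.2% covered by a 980 bp peak.

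The partners of these 17 peaks had a median of 995 bp (700 to 2446, n = 17), and 7 of the 17 H3K27me3 peaks lay wholly inside the partner. The H2AK121ub cover of the 17 bodies had a median of 56.2% (37.5 to 90.5%), close to the median of 54.6% (35.7 to 72.8%) under the short H3K27me3 peak. In CAB1 the order was turned round, with 78.9% under H3K27me3 and 21.4% under a 263 bp H2AK121ub peak, and likewise in LHB1B2 with 87.7% and 21.1%. The same order was found in CAB2, with 72.8% and 55.1%, and in LHCB4.2, with 54.6% and 31.2%. Of the 17 genes 9 had no intron, against 16 of all 84.

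Cell wall and peroxidase genes numbered 27 of 550 (4.91%), UDP-glycosyltransferase genes 8 of 131 (6.11%) and cytochrome P450 genes 11 of 239 (4.60%), each to be read against 2.01% of all protein coding genes. The cell wall and P450 groups were also above the background for longer double-marked peaks, with 44.9% and 41.0%, against 19.8% of all protein coding genes. For UDP-glycosyltransferase genes it was 26.0%, which is not called. They made up 0.625% (0.447 to 0.871%) of genes with a longer double-marked peak, an interval that holds their 0.477% of all protein coding genes. Among genes of the cell wall group the cover was 93.6% for AGP10 and 74.2% for AGP2, which encode arabinogalactan proteins. EDA24, an invertase/pectin methylesterase inhibitor superfamily gene, had 82.0% covered. The whole invertase/pectin methylesterase inhibitor superfamily, placed in this group by the word pectin, had a short double-marked peak in 11 of 73 genes (15.1%), and a longer one in 38 (52.1%). Its name covers inhibitors of either enzyme, so not all of these genes need act on the cell wall. Of the sugar transferases, UGT71B1 had 40.3% covered, UGT84A4 27.4% and UGT85A2 24.6%, the last by 2 peaks under 1 partner of 11940 bp. Of the P450 genes, CYP81D11 had 50.1% covered, CYP81D7 46.5% and CYP710A2, a sterol desaturase, 41.4%.

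Transporter genes numbered 22 of 852 (2.58%) and kinase genes 21 of 1375 (1.53%), close to the background. AUX1, the auxin influx carrier, had a 970 bp peak over 22.5% of its body, centred 2558 bp from the TSS, while 96.3% of the body was under H2AK121ub. ABCG12, an exporter of cuticular wax, had 20.8% under H3K27me3 and 10.6% under H2AK121ub. UMAMIT33 had 43.1% covered by a peak centred in its 5′ UTR. The kinase group, set by words, also takes in regulators of kinases. It included MKK7, a MAP kinase kinase, with 50.4% covered, MAKR6 with 42.8% and BKI1, an inhibitor of the brassinosteroid receptor, with 33.7%.

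The shares of the groups that follow are to be read against 2.01% of all protein coding genes. Defensin, lipid transfer and small secreted peptide genes numbered 11 of 388 (2.84%), F-box genes 22 of 652 (3.37%) and RING or U-box genes 7 of 496 (1.41%). A longer double-marked peak was in 40.5%, 45.2% and 17.7% of these genes in that order, against 19.8% of all protein coding genes. The 3 CLE genes named by the rule, which encode signalling peptides of the CLAVATA3 family, had most of the body covered, with 84.5% for CLE9, 84.3% for CLE3 and 79.5% for CLE13. AUF2, an F-box gene, had 47.2% covered and ATL15, a RING ubiquitin ligase, 17.5%. Immune receptor genes of the NLR type numbered 2 of 158 (1.27%), auxin and SAUR genes 3 of 163 (1.84%), ribosomal protein genes 2 of 344 (0.581%) and pentatricopeptide repeat genes 0 of 282. Genes whose product was named hypothetical, uncharacterized or by a domain of unknown function (DUF) numbered 104 of 3970 (2.62%). The word in the name does not mean that the gene is unstudied. DMP2 had 76.4%, DAU2 64.6% and LSH5 60.3% of the body covered.

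Transcription factor families were near the background among short double-marked peaks and above it among longer ones. They numbered 30 of 1667 genes (1.80%) with a short peak, against 2.01% of all protein coding genes, and 566 (34.0%) with a longer peak, against 19.8% of all protein coding genes. The best covered were AGL51, a MADS box gene, with 98.5%, DOF4.5, a Dof zinc finger gene, with 94.8%, and HSFA6A, a heat shock factor, with 76.4%. All 3 genes were short, between 750 and 1135 bp, and a ranking by cover under a peak of limited length favours short genes.

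Known regulators were counted from 2 lists, and a short double-marked peak was found at 1 gene of each, too few to set either share apart from that of all genes. Of 62 developmental regulators matched by symbol, 1 (1.61%) had a short double-marked peak in the body or the 750 bp upstream, against 2.81% of all protein coding genes, and 45 (72.6%) had a longer one, against 25.2%. The 1 gene was CUC1, a NAC factor that sets organ boundaries, with a 305 bp peak over 16.7% of the body, centred 1523 bp from the TSS, while the whole body was under a 3500 bp H2AK121ub peak. The list named Polycomb machinery also holds genes that are not Polycomb subunits, the trithorax-group regulator ULT1 among them. Of its 33 genes matched by symbol, 1 (3.03%) had a short double-marked peak, against 2.81% of all protein coding genes, and 7 (21.2%) a longer one, against 25.2%. The 1 gene was ULT1 itself, so none of the matched Polycomb subunits had one. The PRC1 genes BMI1B and BMI1C were among the listed symbols that gave no unique gene, so they were not counted. The printed 146 bp peak of ULT1 covered 5.18% of the body while a 5719 bp H2AK121ub peak covered 95.6%. ULT2, its paralogue, was not on the list and was looked up after these values were seen. It had a 954 bp peak over 56.5% of the body and a 5129 bp partner.

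**Figure D5:**
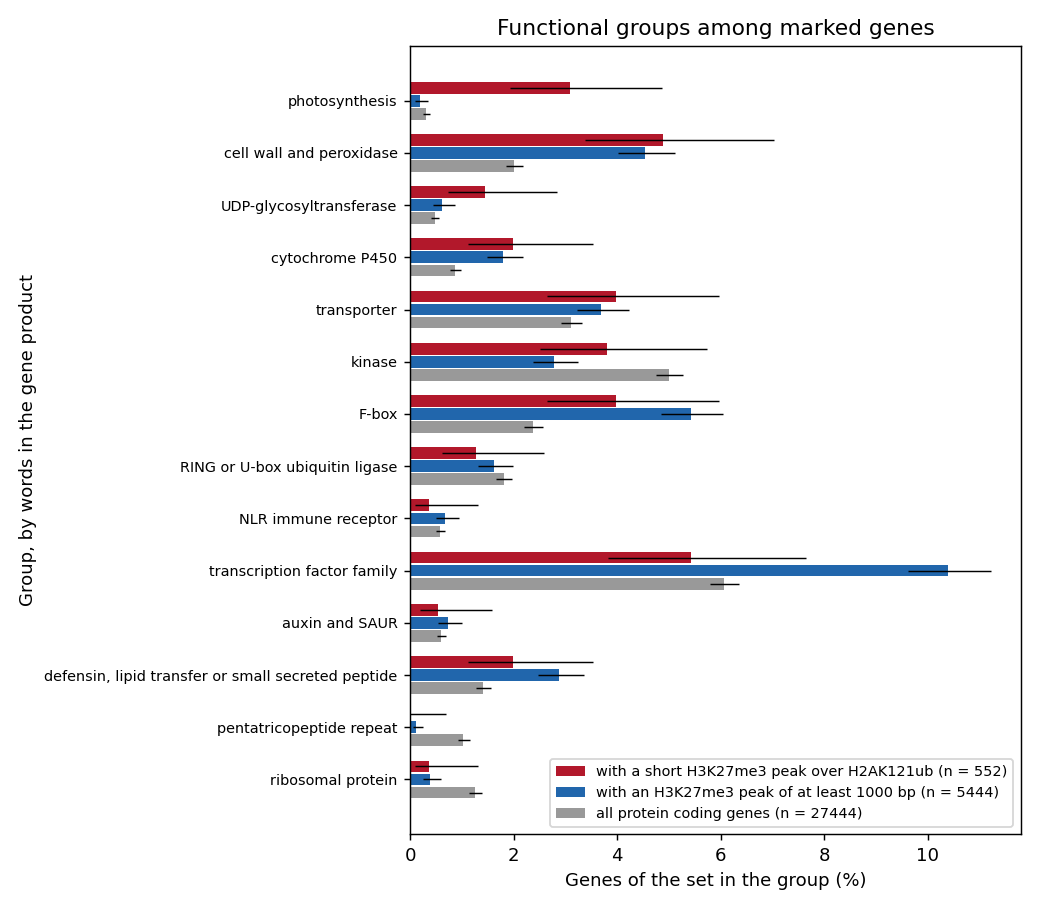
Share of genes in each functional group (x axis, percent of the genes of the set, with 95% Wilson intervals) for genes with a short double-marked peak in the body, genes with a longer double-marked peak in the body and all protein coding genes. Groups (y axis) are set by words in the RefSeq product, and genes named as uncharacterized or by a DUF are left out. Photosynthesis takes 3.08% of genes with a short double-marked peak and 0.184% of genes with a longer one, and transcription factor families take 5.43% of genes with a short double-marked peak and 10.4% of genes with a longer one.

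Short double-marked peaks made up 15.4%, 16.0%, 14.8%, 13.6% and 15.0% of the H3K27me3 peaks of chromosomes 1 to 5, with overlapping intervals, and 93.8% (616 of 657, 91.6 to 95.4%) lay in chromosome arms, against 95.6% of all H3K27me3 peaks. The nearest other H3K27me3 peak was a median of 6424 bp away (5637 to 7114, n = 657), and 6194 bp away (5874 to 6485, n = 3414) from longer double-marked peaks. Within 1000 bp of another H3K27me3 peak lay 6.54% of short double-marked peaks (43 of 657, 4.90 to 8.70%), against 28.6% (18 of 63, 18.9 to 40.7%) of short H3K27me3 peaks without H2AK121ub, a difference of -22.0 points (-34.3 to -12.1). Against longer double-marked peaks, at 5.89%, the difference was 0.657 points (-1.19 to 2.94), an interval that holds 0, and its sign turned under 2 of 12 alternative settings.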

How the data were processed

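The wild-type lists, 1 per mark, come from ChIP-seq of whole seedlings. Per the deposited labels and the study's methods, the authors mapped reads with Bowtie to TAIR10, ran MACS2 with default parameters on each replicate with input as control, intersected the replicates and combined the peaks of 7 and 10 DAG. Whether the deposited lists hold both ages is not settled. Intersection can only shorten a peak. Versions are not given in the sources used here. The deposited values are peak starts and ends, with no score. No column was left out.

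Positions, counted from 1, were compared with RefSeq's version of the genome, whose 5 nuclear chromosomes have the TAIR10 lengths, and its 27444 nuclear protein coding genes. As TSS the gene's outer end was taken. Midpoints took the first fitting class of coding sequence, 5′ UTR, 3′ UTR, intron, 750 bp upstream, other gene and none. Shares have 95% Wilson intervals, differences Newcombe intervals and medians order-statistic intervals, computed in Python 3.11.15 with NumPy 2.4.6 and SciPy 1.17.1, drawn with matplotlib 3.10.9 and checked on simulated regions. No p-value was computed. Intervals cover counting error along the genome, not differences between plants.

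Members and gene lists were chosen with earlier results of these data known. Named were the 3 peaks on either side of the length limit, the 3 shortest, those with the 3 longest and 3 shortest partners, the 10 best covered genes of at least 500 bp, marked genes of the 2 lists, the H2AK121ub peaks that held most members, and per functional group the up to 3 best covered genes with a symbol. The 38 symbols of the Polycomb machinery list, which also holds trithorax-group genes, and 67 of developmental regulators gave 33 and 62 genes, 1 of them listed under 2 symbols. The alternatives concerned the overlap, both length limits, merging of H3K27me3 peaks, chromosomes, chromosome arms, all annotated genes and the gene window. For 7 of the differences they were added after the data were seen.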

Additional observations from a re-analysis of the deposited data

How the results depend on the processing

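Of 203 values recomputed under 15 settings, 185 stayed within their interval, their count range or their side of 0, and 18 moved. The other length limits moved most, by the construction of the set. With an upper length of 750 bp there were 419 peaks over 486 genes, 75.9% lay wholly inside the partner, 14.3% held a TSS, 51.8% were centred within 500 bp of one and 83.1% in a gene body, median body cover was 29.1% and median GC content 44.3%. With 1500 bp there were 1086 peaks over 1314 genes, and the values were 54.1% inside the partner, 27.7% with a TSS, 39.8% within 500 bp, 51.9% body cover and 41.0% GC content. With all annotated nuclear genes, 24.2% held a TSS, 53.7% were within 500 bp of one and 86.8% were centred in a gene. The differences in gene bodies against the other 2 H3K27me3 sets, and within 500 bp of a TSS against short H2AK121ub peaks free of H3K27me3, kept their sign and an interval without 0. The first of these against longer peaks was 13.0 points with at least 50% of the peak covered. For 7 other differences, 84 values under 12 settings were added after the data were seen. The 3 in coding sequence kept their sign and an interval without 0. So did that in genes without intron against short H2AK121ub peaks free of H3K27me3. The difference in nearness to another peak against short H3K27me3 peaks without H2AK121ub did so too. The coding difference against short H2AK121ub peaks free of H3K27me3 was 9.52 points at 1500 bp. For gene bodies against that set the interval held 0 under 9 settings, with differences of -2.41 (50% covered), -0.278 (750 bp), -3.01 (merged peaks), -2.18 (chromosome arms) and -3.44, -3.25, -2.16, -2.97 and -3.43 points without chromosomes 1 to 5 in turn. Nearness against longer peaks turned to -0.388 points at 1500 bp and -0.124 without chromosome 5, its interval always holding 0 (0.106 to 2.02 points elsewhere). The causes were not tested. No paired analysis was possible because replicates were merged before deposit and neither list has values for them. The lists give no depth, so a gene without a peak is one without a call.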

Other observations

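Some short double-marked peaks lay over genes that do not code for protein. Of the 116 that met no protein coding body, 54 met another annotated gene and 62 met none, 35 of which reached the 750 bp upstream of a protein coding gene. Over all peaks, 36 long non-coding RNA genes (1.03% of 3480), 20 transcribed pseudogenes (2.16% of 926), 11 other pseudogenes (0.281% of 3917) and 4 microRNA genes (1.23% of 326) were met. MIR771 and MIR851 lay side by side under a single 615 bp H3K27me3 peak that covered both genes whole, with a 446 bp H2AK121ub partner. MIR868 had 25.9% of its annotated length under a 345 bp peak. The transcribed pseudogenes CYP51G2 and CYP71B18 of the cytochrome P450 family had 33.2% and 20.6% covered. These genes were chosen after their values were seen.

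Some of the 12 H2AK121ub peaks with 2 short double-marked peaks held both in the same gene, others in different genes or with a peak outside any gene. In CA1, a carbonic anhydrase of the chloroplast, H3K27me3 peaks of 396 and 241 bp lay under a partner of 4096 bp. In SEOR1, a protein of the phloem sieve elements, they were 105 and 373 bp under 3515 bp, and in KCS20, an enzyme of very long chain fatty acid synthesis, 469 and 628 bp under 3506 bp. LHB1B2 and LHB1B1 shared a partner of 2446 bp, with peaks of 939 and 818 bp. AT2G44370 and AT2G44380, neighbouring genes of the cysteine and histidine-rich C1 domain family, had peaks of 608 and 747 bp under 2338 bp. That family had a short double-marked peak in 11 of 141 genes (7.80%), against 2.01% of all protein coding genes, and a longer one in 81 (57.4%), against 19.8%. It too was chosen after its values were seen.

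Small stress and metal-binding genes also occurred, likewise chosen after their values were seen. The neighbouring cold-responsive genes KIN1 and KIN2 had 31.4% and 26.5% of the body under separate peaks. The metallothionein genes MT1A, MT2A and MT2B had 37.1%, 17.9% and 29.0% covered. Genes named as HSP20-like chaperones had a short double-marked peak in 3 of 31 cases (9.68%), against 2.01% of all protein coding genes, and a longer one in 0 of 31, against 19.8%.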
